A study of Mus musculus with 31 samples.

Results

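Astrocyte genes were followed in the basolateral amygdala (BLA) of mice that overexpress human CYFIP1. The 10 genes were chosen as a list: Gfap, Aqp4, Slc4a4, Slc1a2, Slc1a3, Glul, Gja1, Aldoc, Aldh1l1 and Agt. They are 10 of the 48709 genes measured in each mouse, and all 10 passed the filter on low counts that left 17428 genes. No rule on their values was used to pick them, though earlier results of these data were known when the list was chosen.

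RNA from a punch of the BLA, left and right pooled, was sequenced from the 3′ ends of transcripts by QuantSeq in 31 mice on a C57BL/6N background. The sample labels number the lines 1 and 3, the study's text numbers them otherwise, and the labels are followed here. There were 8 mice labelled Control line 1 (4 males, 4 females, aged 59 to 61 days), 7 CYFIP OE line 1 (3 males, 4 females, aged 59 to 77 days, 4 of them 77 days), 8 Control line 3 (4 males, 4 females, aged 58 to 60 days) and 8 CYFIP OE line 3 (4 males, 4 females, aged 58 to 64 days). CYFIP OE mice carry a bacterial artificial chromosome with the human CYFIP1 gene. Its insertion site differs between the lines, each of which descends from a single founder. The study describes the control mice as littermates without it. In line 1, however, 7 of the 8 sequenced controls share a name prefix that no CYFIP OE mouse has. The transgene is not restricted to astrocytes, and mouse Cyfip1 itself was 33.6 CPM (read counts scaled to a common library size) ± 4.31 (SD, n = 7) and 32.5 ± 3.2 (n = 8) in the CYFIP OE mice of lines 1 and 3 against 31.7 ± 4.87 and 35.3 ± 3.47 (n = 8 each) in their controls. The human gene was not counted separately.

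Astrocytes clear glutamate and potassium from around synapses, move water and bicarbonate at the vessel wall, and share metabolites through gap junctions. Gfap, an intermediate filament protein, is the classical marker of fibrous and of reactive astrocytes and is sparse in much of the grey matter. The other 9 genes serve homeostatic tasks: Slc1a2 and Slc1a3 encode the glutamate transporters GLT-1 and GLAST, Glul makes glutamine from the glutamate taken up, Aqp4 is the water channel of the endfeet, Slc4a4 a sodium bicarbonate cotransporter, Gja1 the gap junction protein connexin 43, Aldoc a glycolytic enzyme, Aldh1l1 an enzyme of folate metabolism and Agt the secreted precursor of angiotensin. Expression of several of these genes, Gfap and Agt among them, is known to differ between brain regions.

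Total counts per mouse ranged from 5286708 to 8685308. Libraries that stand apart come first, since several values rest on them. A mouse of the group CYFIP OE line 3 (replicate 1) had a connectivity Z score of -4.74. The score is the standardized sum of the rescaled and squared correlations of a mouse's profile with those of the other mice. The next lowest mouse, Control line 3 replicate 1, had -1.18. The study's methods state that samples with a connectivity Z score under -2 were removed. By the score computed here, only CYFIP OE line 3 replicate 1 falls under that limit. It was nevertheless kept in the main fits, correlations and figures, which therefore depart from the study's rule. Values without that mouse are given for several results below. The punches also differed in their makeup. Summed markers of choroid plexus and ependyma ranged from 23.1 to 8344.5 CPM, markers of striatal neurons from 184.1 to 4194.3 and markers of oligodendrocytes from 1170.7 to 9210.1. The first of these sums was mostly a single gene, Ttr, which ranged from 13.2 to 8228.2 CPM. In such bulk tissue, fewer cells of a type and less RNA per cell cannot be told apart.

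Promoters are shown for Gfap and Agt, whose levels moved together across mice, and for Gja1, which was related to both. The sequences are those of RefSeq on GRCm38.p6, read 5′ to 3′ over the 250 bases before the RefSeq start. Matches on either strand to the core of the NFI site (TTGGC), the SOX site (AACAAT), the STAT site (TTCNNNGAA) and the TATA box (TATAAA) are in capitals.
Agt (chr8:124569707-124569956, minus strand): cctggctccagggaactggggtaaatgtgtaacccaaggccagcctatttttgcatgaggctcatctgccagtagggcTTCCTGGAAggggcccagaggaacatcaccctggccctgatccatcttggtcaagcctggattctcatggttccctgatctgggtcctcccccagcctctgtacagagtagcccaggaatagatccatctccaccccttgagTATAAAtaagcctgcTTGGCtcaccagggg
Gfap (chr11:102897201-102897450, minus strand): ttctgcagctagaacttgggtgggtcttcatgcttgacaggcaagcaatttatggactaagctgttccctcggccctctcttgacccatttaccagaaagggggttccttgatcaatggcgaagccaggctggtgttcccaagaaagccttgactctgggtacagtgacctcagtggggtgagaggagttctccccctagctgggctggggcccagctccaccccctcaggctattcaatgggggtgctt
Gja1 (chr10:56377050-56377299, plus strand): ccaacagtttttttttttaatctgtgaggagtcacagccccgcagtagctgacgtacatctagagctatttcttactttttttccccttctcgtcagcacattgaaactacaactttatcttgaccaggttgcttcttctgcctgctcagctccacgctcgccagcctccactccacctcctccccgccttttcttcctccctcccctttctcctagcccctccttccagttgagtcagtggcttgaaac
The window of Agt held a STAT, a TATA and an NFI match, which began 172, 30 and 15 bases before the start and did not overlap. No match lay in the windows of Gfap and Gja1. Of all 32851 promoter windows of this length, 41.5% held the NFI core, 9.4% the SOX site, 7% the STAT site and 12.4% the TATA box. RefSeq windows were found for 9 of the 10 genes. The Gfap start used by RefSeq lies inside the gene as annotated by GENCODE (chr11:102887336-102900912), while that of Agt is the end of its GENCODE span (chr8:124556534-124569706).

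The genes fell into steady and variable ones. Gfap and Agt were the most variable of the 10. Gfap ranged from 3.38 to 66.1 CPM across the 31 mice, a 19.6-fold range, with a coefficient of variation of 82.4%, and Agt ranged from 2.94 to 59.3 CPM, a 20.2-fold range, with a coefficient of variation of 76.7%. Among the 8449 genes with a mean of at least 10 CPM, 99.2% varied less than Gfap and 99% less than Agt. Counting error alone would give about 8.7% for Gfap, from 23 to 554 reads per mouse, and 8.49% for Agt, from 20 to 584 reads.

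The glutamate genes were the steady ones. Slc1a2 ranged from 1191 to 1774 CPM with a coefficient of variation of 10.4%, and Slc1a3 from 224 to 400 CPM with 12%. Only 1% of the same 8449 genes varied less than Slc1a2, and 2.6% less than Slc1a3. Glul, at 548 to 947 CPM, and Aldoc, at 495 to 905 CPM, had coefficients of 14.8% and 18.6%, still below the median of 22.9% over those genes.

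The remaining genes lay between. Aldh1l1 ranged from 8.41 to 25.7 CPM, Gja1 from 28 to 82.3, Slc4a4 from 78.1 to 202 and Aqp4 from 17.9 to 54.9, with coefficients of variation of 24.2%, 26.7%, 29.1% and 31.2%. The spread of Gfap rested in part on the mouse with the low connectivity, which had its highest level. Without that mouse Gfap still varied 16.6-fold, with a coefficient of 71.3%. The long noncoding gene Gm26668 overlaps Gfap on the opposite strand and was given at most 113 reads in a mouse.

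**Figure D1:**
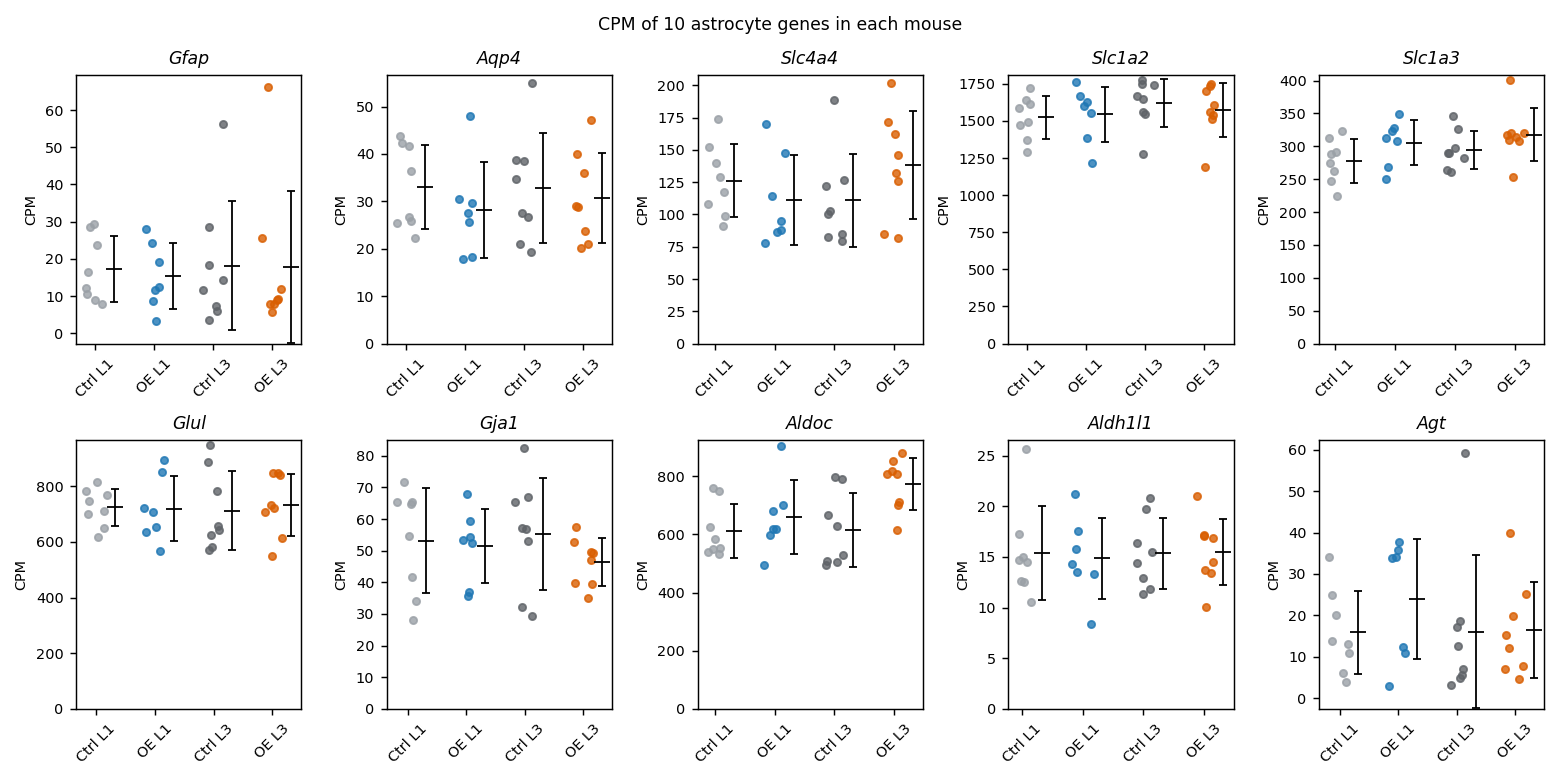
CPM (vertical axes, linear) of the 10 genes in each mouse by group (Ctrl, control; OE, CYFIP OE; L1, line 1; L3, line 3), with 1 point for each mouse and the mean ± SD beside the points. In every panel the points of the groups overlap, and Gfap and Agt spread within each group, most widely in Control line 3 for Agt (3.09 to 59.3 CPM) and in CYFIP OE line 3 for Gfap (5.8 to 66.1 CPM), while Slc1a2 stays between 1191 and 1774 CPM.

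Gfap and the homeostatic genes were then compared between genotypes. In Control line 1, Gfap was lowest at 7.9, had a median of 14.4 and was highest at 29.3 CPM, and in CYFIP OE line 1 these values were 3.38, 12.4 and 28.1 CPM. In Control line 3 they were 3.54, 13 and 56.2 CPM and in CYFIP OE line 3 5.8, 9.13 and 66.1 CPM. The groups overlapped over nearly their whole range, and the highest mouse of each line 3 group stood far above the others. The log2 fold change of Gfap between CYFIP OE and control mice was -0.12 ± 0.34 (SE) over both lines, -0.11 ± 0.5 in line 1 and -0.13 ± 0.48 in line 3. Without the low-connectivity mouse the line 3 value was -0.7 ± 0.45, and without Control line 3 replicate 1 it was 0.33, so that its direction rested on single mice. In line 1 it was 0.16 without Control line 1 replicate 6 and -0.65 without the mice aged 77 days, all of which were CYFIP OE line 1. The 95% interval over both lines ran from -0.79 to 0.55, which leaves changes of these sizes undetected at this spread.

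Agt is the secreted gene of the list and shared that spread. Its lowest, median and highest levels were 3.79, 13.5 and 34 CPM in Control line 1, 2.94, 33.9 and 37.7 in CYFIP OE line 1, 3.09, 9.77 and 59.3 in Control line 3 and 4.61, 13.7 and 39.8 in CYFIP OE line 3. In CYFIP OE line 1, 4 of the 7 mice were above the mean of their controls, yet the groups overlapped. The log2 fold change was 0.36 ± 0.36 over both lines, 0.68 ± 0.51 in line 1 and 0.05 ± 0.5 in line 3 (edgeR unadjusted p = 0.324, 0.192 and 0.922).

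The value of Agt depended on the model. With 5 surrogate variables, which are estimated from the expression table itself and stand in for the technical components of the study's model, its log2 fold change was 0.76 ± 0.15 over both lines (edgeR unadjusted p = 1.47e-05, adjusted p = 0.0719), 0.73 ± 0.21 in line 1 and 0.79 ± 0.23 in line 3. It did not pass the adjusted threshold there, and no gene of the 17428 did in that comparison. Over both lines, without Control line 3 replicate 1, its highest mouse, the log2 fold change was 0.64. In line 3 it was also 0.64 without that mouse and -0.19 without CYFIP OE line 3 replicate 2.

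Aldoc, on the glycolytic side, had the smallest p of the 10 in the genotype comparison. It was lowest at 534, had a median of 569 and was highest at 759 CPM in Control line 1, against 495, 620 and 905 in CYFIP OE line 1, 495, 580 and 797 in Control line 3 and 616, 808 and 881 in CYFIP OE line 3. In line 3 all 8 CYFIP OE mice were above the mean of their controls, the lowest only just (616.2 against 615.3 CPM). In line 1 5 of 7 were above it, and the ranges overlapped in both lines. The log2 fold change was 0.22 ± 0.09 over both lines (edgeR unadjusted p = 0.0195, adjusted p = 0.999) and 0.33 ± 0.13 in line 3 (unadjusted p = 0.0123, adjusted p = 0.524). In line 1 it was 0.11 ± 0.13 (unadjusted p = 0.421), and the difference between the lines was 0.23 ± 0.18 (unadjusted p = 0.222). Over both lines, the value was 0.19 ± 0.1 with age as covariate (unadjusted p = 0.0765) and 0.35 ± 0.14 within name groups (mice whose names share a prefix) that hold both genotypes (unadjusted p = 0.0274). Without the mice aged 77 days the line 1 value was -0.03 and the difference between the lines 0.37. Over both lines Aldoc then no longer had an edgeR unadjusted p under 0.05. With the surrogate variables the value was 0.18 ± 0.07 over both lines, 0.22 ± 0.1 in line 1 and 0.13 ± 0.1 in line 3, and the difference between the lines turned to -0.09 ± 0.15.

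Among the glutamate genes, Slc1a3 had a log2 fold change of 0.13 ± 0.07 over both lines (edgeR unadjusted p = 0.0782), with 12 of 15 CYFIP OE mice above the control mean. It was highest in the low-connectivity mouse, a CYFIP OE mouse. Without that mouse the highest level was 349 CPM and the log2 fold change of Slc1a3 over both lines was 0.1. Its groups overlapped, at 224 to 345 CPM in controls and 250 to 400 in CYFIP OE mice. Slc1a2 was at -0.01 ± 0.07 and Glul at 0.01 ± 0.08. Their 95% intervals, -0.15 to 0.12 and -0.16 to 0.17, bound any difference more closely than that of Gfap. For the barrier and coupling genes, Aqp4 was at -0.15 ± 0.15 and Gja1 at -0.15 ± 0.14. Aldh1l1 was at -0.01 ± 0.13.

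Slc4a4 had estimates of opposite sign in the lines, neither past the threshold. Its levels were 90.7, 123 and 174 CPM (lowest, median, highest) in Control line 1 against 78.1, 95 and 170 in CYFIP OE line 1, and 79.4, 102 and 189 in Control line 3 against 81.9, 139 and 202 in CYFIP OE line 3. The groups overlapped in each line. The log2 fold change was -0.19 ± 0.2 in line 1 and 0.32 ± 0.2 in line 3, and the difference of 0.51 ± 0.28 did not pass the threshold (edgeR unadjusted p = 0.0788, adjusted p = 0.67). Without the low-connectivity mouse that difference was 0.6 ± 0.28 (unadjusted p = 0.0377, adjusted p = 0.432), and with the surrogate variables it was -0.18 ± 0.14, from 0.16 ± 0.09 in line 1 and -0.02 ± 0.1 in line 3. Without the mice aged 77 days the line 1 value was -0.03 ± 0.27 and the difference 0.35 ± 0.34. Markers of striatal neurons moved alongside. All 6 of those tested (of 7 listed) were above 0 in the same contrast at an unadjusted p under 0.05, with a median log2 difference of 1.52 against -0.01 over all genes, none with an adjusted p under 0.05. Their summed level ranged from 356 to 3130 CPM in CYFIP OE line 1 and from 1756 to 2942 in its controls, and from 201 to 4194 in CYFIP OE line 3 and 184 to 3745 in its controls. The marker not tested, Drd2, had no read in 20 of the mice and at most 1.74 CPM. No striatal marker was at 0 in every mouse. Their part in the Slc4a4 values was not tested.

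**Figure D2:**
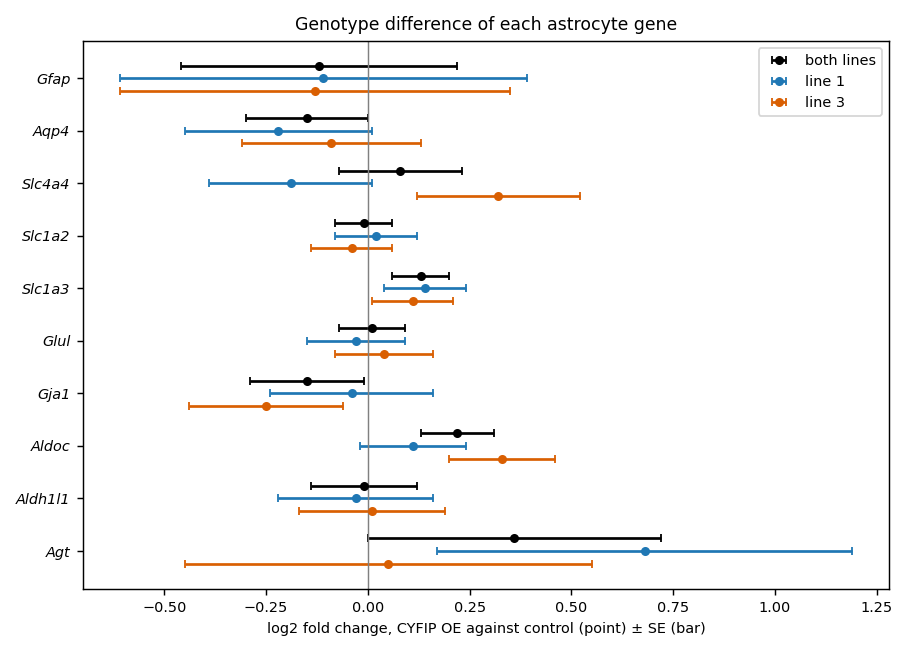
Log2 fold change of each gene between CYFIP OE and control mice (horizontal axis; points, edgeR estimate; bars, SE) over both lines and in line 1 and line 3. Most bars reach 0, the bars of Gfap and Agt are the widest, Aldoc lies above 0 at 0.22 over both lines, and Slc4a4 lies at -0.19 in line 1 and 0.32 in line 3.

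Counted together, none of the 10 genes was called in any comparison at an adjusted p under 0.05 by edgeR, and none by DESeq2. Over both lines 0 of 10 were called against 0% of the 17428 genes tested, and 1 of 10 (Aldoc) had an unadjusted p under 0.05 against 4.3% of all genes. In line 1 the counts were 0 and 0, against 0% and 3.96%. In line 3 they were 0 and 1 (Aldoc), against 0% and 7.93%. For the difference between the lines they were 0 and 0, against 0% and 8.1%. Between the control mice of the lines they were 0 and 0, against 0% and 4.41%. In these fits, which hold no surrogate variables, no member had a p under the study's unadjusted threshold of 0.005. Over both lines 51 of all genes did. With 5 surrogate variables Agt was under that threshold over both lines and in each line. At an unadjusted edgeR p under 0.05 that fit also held Aldoc and Slc1a3 over both lines, and Aldoc and Glul in line 1. Over both lines 5 members were above and 5 below 0, with a median log2 fold change of 0 against -0.01 over all genes.

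Sex was the remaining comparison. Gfap ranged from 3.54 to 29.3 CPM with a median of 11.7 in the 16 females and from 3.38 to 66.1 with a median of 18.4 in the 15 males. Agt ranged from 3.09 to 34.1 CPM in females, with a median of 11.7, and from 2.94 to 59.3 in males, with a median of 18.6. The log2 differences of females against males were -0.61 ± 0.35 for Gfap (edgeR unadjusted p = 0.0883) and -0.7 ± 0.36 for Agt (unadjusted p = 0.0591). No member was called, against 0.0631% of all genes, and none had an unadjusted p under 0.05, against 4.62%. Without the low-connectivity mouse, a male, the difference of Gfap was -0.35 ± 0.31, and without Control line 3 replicate 1 that of Agt was -0.44. With the surrogate variables they were -0.07 ± 0.15 and -0.03 ± 0.16.

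Set against the others, Gfap did not stay at a fixed ratio. Its log2 CPM minus the mean log2 CPM of the other 9 genes ranged from -4.73 to -0.86 over the mice, while that mean itself covered a 1.8-fold range. The index averaged -3.1 ± 0.77 (SD, n = 16) in control and -3.31 ± 0.95 (SD, n = 15) in CYFIP OE mice. By group it was -3.01 ± 0.5 in Control line 1, -3.28 ± 0.83 in CYFIP OE line 1, -3.2 ± 0.99 in Control line 3 and -3.34 ± 1.1 in CYFIP OE line 3, differences smaller than the SDs. The highest values belonged to CYFIP OE line 3 replicate 1 (-0.86) and Control line 3 replicate 1 (-1.57).

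The co-variation of the genes over the 31 mice was measured next, on log2 CPM, with permutation p-values (two-sided) adjusted over all 45 pairs. Of these, 12 passed an adjusted p under 0.05, 10 positive and 2 negative, and the median r was 0.27. Neither value is given for pairs of other genes, so each called pair is set against other genes below. A first group of pairs joined Gfap, Aqp4, Agt, Gja1 and Aldh1l1, though not every pair among them passed. Gfap rose and fell with Aqp4 (r = 0.78, permutation p = 2e-05, adjusted p = 0.00045; Spearman's rho = 0.8, permutation p = 2e-05) and with Agt (r = 0.75, permutation p = 1e-05, the smallest the permutations can give, adjusted p = 0.00045; rho = 0.76, permutation p = 1e-05). When the 2 mice most distant from the Gfap median were left out, r was 0.72 and 0.82. Within groups r with Aqp4 was 0.96 in Control line 1, 0.56 in CYFIP OE line 1, 0.85 in Control line 3 and 0.83 in CYFIP OE line 3, and with Agt it was 0.89, 0.92, 0.94 and 0.4.

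These values stand against a high background, since all genes share library, scaling and punch. An r with Gfap as strong as that of Aqp4, in either direction, was reached by 0.213% of the 8439 other genes with at least 10 CPM, and one as strong as that of Agt by 0.355%. For Gja1 with Gfap (r = 0.51, permutation p = 0.0033, adjusted p = 0.0165; rho = 0.6, permutation p = 0.00041), the share was 8.52%. Without the 2 farthest mice that r was 0.64, but within CYFIP OE line 3 it was -0.28, and with the means of name groups removed the pair was no longer called (r = 0.4, adjusted permutation p = 0.0616). Aqp4 with Agt (r = 0.61, adjusted permutation p = 0.00349), Gja1 with Agt (r = 0.59, adjusted permutation p = 0.0042), Aldh1l1 with Agt (r = 0.55, adjusted permutation p = 0.00742) and Aqp4 with Aldh1l1 (r = 0.48, adjusted permutation p = 0.0228) completed these pairs. As strong an r as in these pairs was reached by 2.33% of the genes with Agt, 5.45% with Gja1, 4.47% with Agt and 7.38% with Aqp4. With the other gene of each pair the shares were 2.31%, 2.97%, 0.664% and 2.12%.

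A second group of pairs joined Glul to Slc4a4 (r = 0.61, permutation p = 0.00029, adjusted p = 0.00349; rho = 0.59, permutation p = 0.00041) and to Aldoc (r = 0.56, permutation p = 0.00122, adjusted p = 0.00742; rho = 0.55, permutation p = 0.00156). The first was positive in every group, from 0.42 in Control line 3 to 0.89 in CYFIP OE line 1, and the second ranged from 0.24 in CYFIP OE line 3 to 0.86 in CYFIP OE line 1. They were 0.6 and 0.72 when the 2 most distant mice were left out. As strong an r was reached by 8.43% of the 8439 genes with Slc4a4 for the first and by 6.67% with Glul for the second. Glul with Aqp4 (r = 0.48, adjusted permutation p = 0.0228) linked these pairs to the first. For that pair the share was 12.7% with Glul and 7.06% with Aqp4.

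The 2 negative pairs concerned the glutamate transporters. Slc1a2 fell where Gfap rose (r = -0.58, permutation p = 0.00048, adjusted p = 0.0042; rho = -0.5, permutation p = 0.00438). With the 2 mice most distant from the Gfap median left out, that r was -0.38, within Control line 1 it was 0.09, and when counts were scaled to library totals alone, without TMM, the pair was no longer called. Slc1a3 was lower where Slc4a4 was higher (r = -0.5, permutation p = 0.00415, adjusted p = 0.0187; rho = -0.5, permutation p = 0.00449), with r of -0.45 without the 2 farthest mice and -0.1 within Control line 1, and this pair too was not called under that scaling, nor with the means of name groups removed (r = -0.29, adjusted permutation p = 0.17). An r with Slc4a4 as strong as that of Slc1a3 was reached by 15.4% of the 8439 genes, and an r with Gfap as strong as that of Slc1a2 by 4.48%. Slc1a2 and Slc1a3, which serve the same task, had an r of 0.04, which was 0.32 without the low-connectivity mouse and 0.47 (adjusted permutation p = 0.0181) with scaling to library totals.

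**Figure D3:**
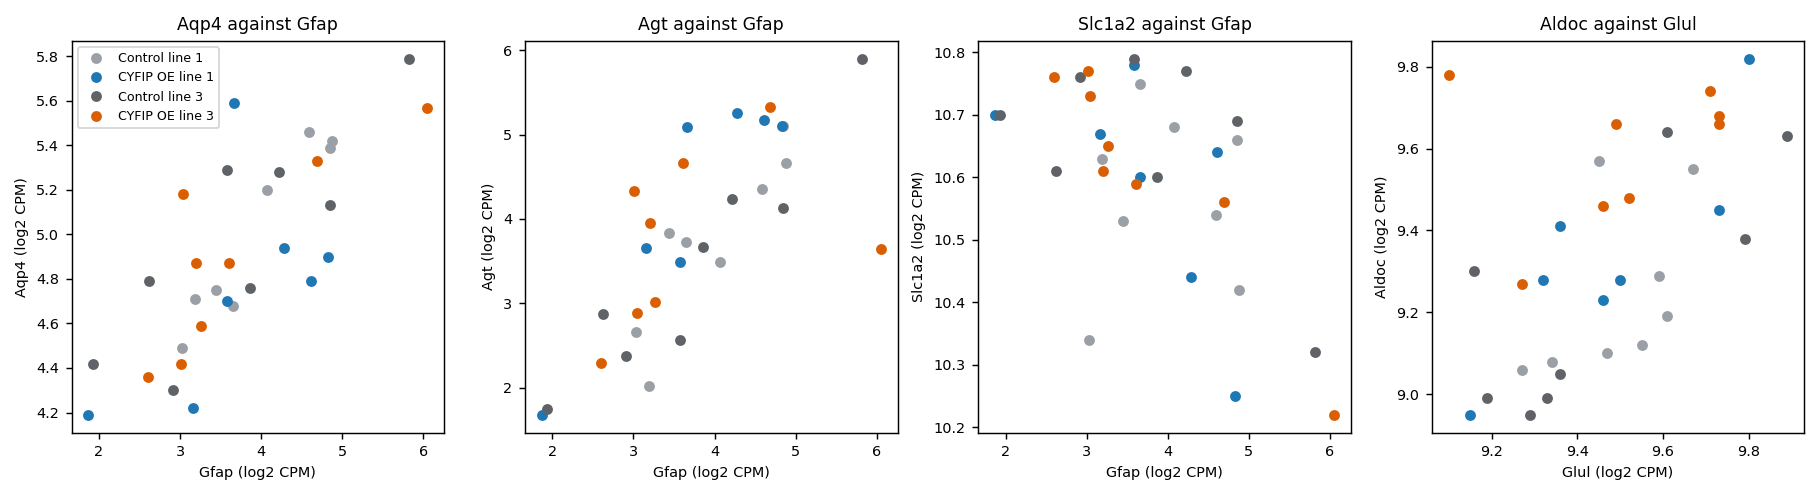
Log2 CPM of Aqp4, Agt and Slc1a2 against Gfap, and of Aldoc against Glul, with 1 point for each of the 31 mice coloured by group. Aqp4 and Agt rise with Gfap (r = 0.78 and 0.75) in mice of every group, and the low Slc1a2 values include the 2 mice with the highest Gfap.

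The members were also set against summed markers of 10 cell types and regions, a step added after the data were seen, with p-values adjusted over the 100 pairs. Gfap, Aqp4 and Agt followed the sum of 40 other astrocyte genes (r = 0.76, 0.65 and 0.68, adjusted permutation p = 0.000333, 0.00114 and 0.00114), as did Aldoc (r = 0.54, adjusted permutation p = 0.00944) and Glul (r = 0.43, adjusted permutation p = 0.0498), and Slc1a2 went against it (r = -0.52, adjusted permutation p = 0.0142). Without the 2 farthest mice the value of Slc1a2 was -0.27. The 6 genes Gfap, Aqp4, Slc4a4, Glul, Gja1 and Agt rose with the oligodendrocyte markers, most of all Aqp4 (r = 0.67, adjusted permutation p = 0.00114). Another 6, Gfap, Aqp4, Slc4a4, Glul, Aldh1l1 and Agt, were lower where general neuron markers were higher, most of all Agt (r = -0.71, adjusted permutation p = 0.000333). Of the 8439 other genes, 6.92% had an r with the astrocyte sum as high as the lowest of these 5 members, 8.63% did with the oligodendrocyte sum, and 3.13% had an r with the neuron sum as low as the weakest of the 6.

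Region markers separated the members further. Slc4a4 followed the striatal markers (r = 0.74, permutation p = 1e-05, adjusted p = 0.000333; rho = 0.84), with r from 0.66 to 0.86 within the 4 groups, and Slc1a3 went against them (r = -0.57, adjusted permutation p = 0.00577). As high an r with the striatal sum as that of Slc4a4 was found for 3.84% of the genes. Agt and Gja1 followed the thalamic and pallidal markers (r = 0.6 and 0.49, adjusted permutation p = 0.0021 and 0.018). Glul, Slc4a4 and Agt were lower where markers of BLA principal neurons were higher (r = -0.58, -0.54 and -0.52, adjusted permutation p = 0.00408, 0.00876 and 0.0135). This sum was mostly a single gene, Camk2a, with a median of 700 CPM against 887 for the sum. Gfap rose with the choroid and ependymal markers, a sum made up mostly of Ttr (r = 0.48, adjusted permutation p = 0.0252), and Slc4a4 fell (r = -0.47, adjusted permutation p = 0.0263). The first of these was 0.32 without the 2 mice most distant in Gfap, and the negative r of Gfap with the striatal markers (-0.49, adjusted permutation p = 0.0191) was then -0.27. No member passed the threshold with the vascular and mural markers, and with microglial markers only Aldoc did (r = 0.44, adjusted permutation p = 0.0395), at 0.26 without its 2 most distant mice. Gfap, Aqp4, Gja1 and Agt rose with markers of oligodendrocyte precursors, Gja1 most (r = 0.63, adjusted permutation p = 0.00114). An r as strong as the weakest called, in its direction, was found for 8.54% of the 8439 genes with the BLA principal neuron sum. For the negative values with the striatal sum the share was 7.48%. It was 9.27% with the microglial, 2.92% with the precursor and 1.88% with the thalamic and pallidal sum. With the choroid and ependymal sum it was 2.07% (positive) and 3.7% (negative). The part of these cell types in the members' levels was not tested.

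**Figure D4:**
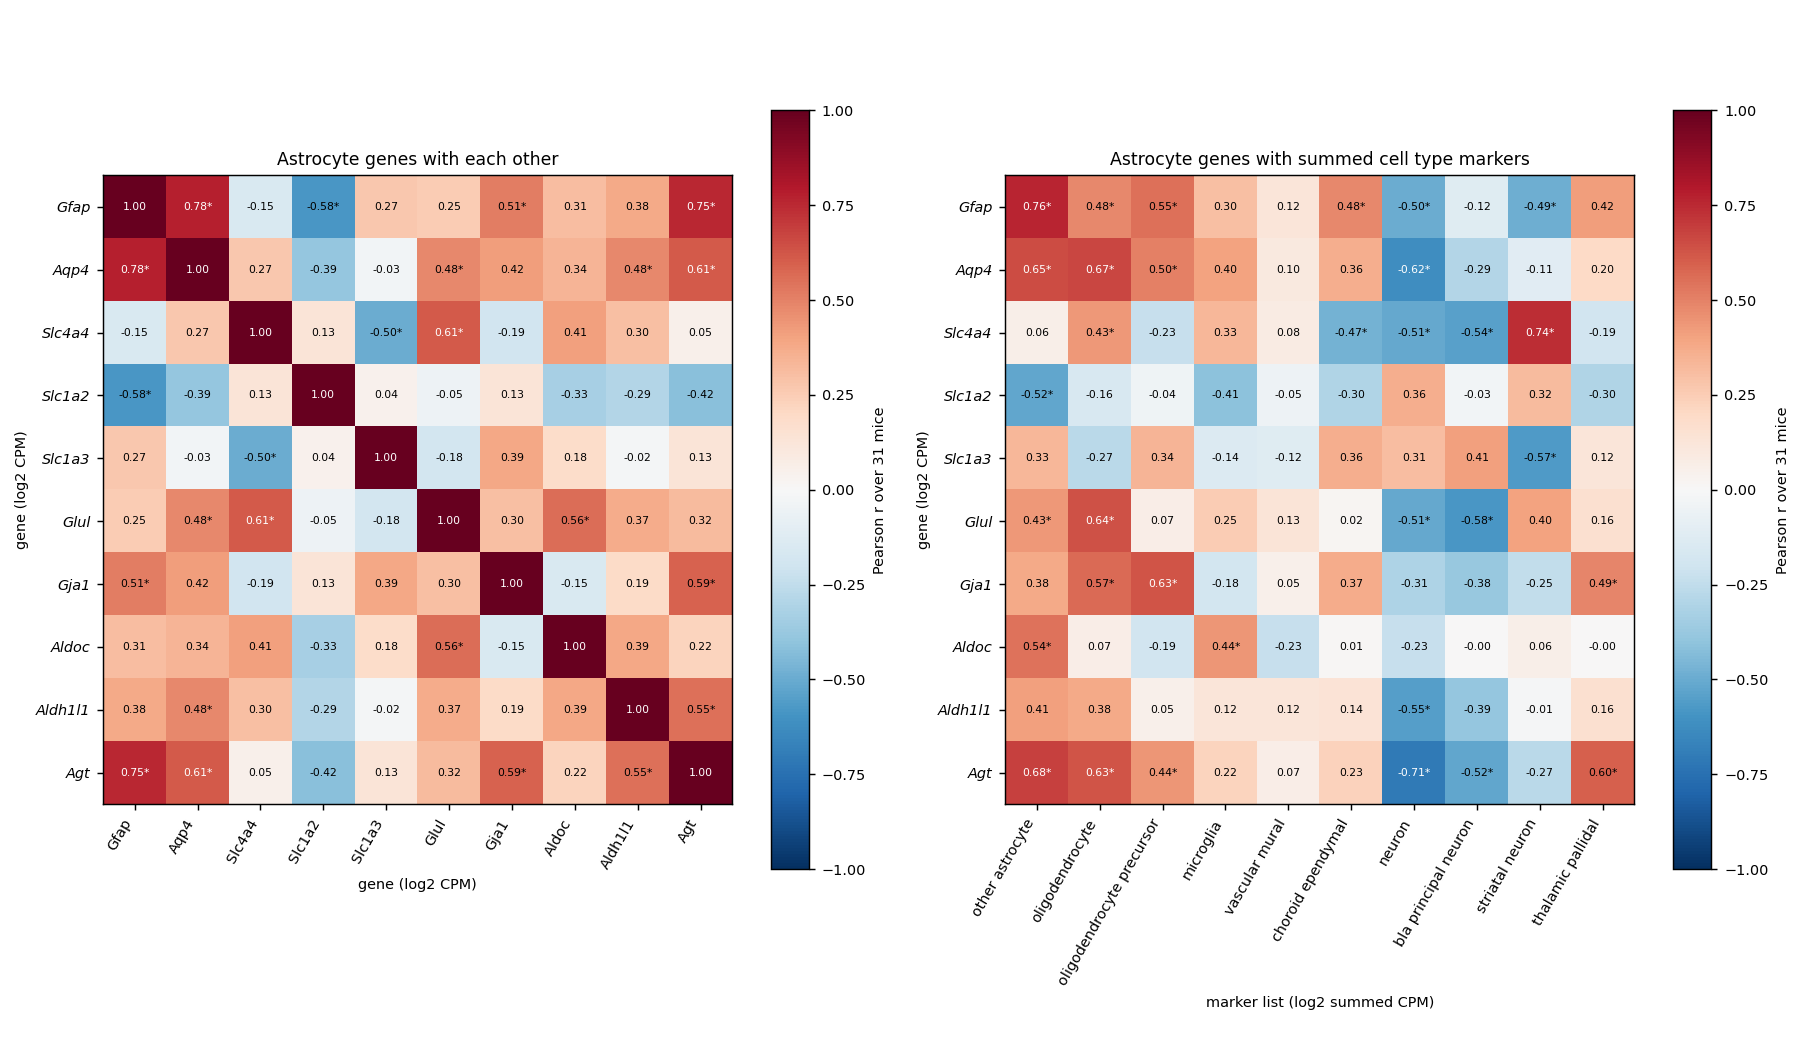
Pearson's r over 31 mice between the 10 genes (left) and between each gene and the summed CPM of 10 marker lists (right), with red for positive and blue for negative values and an asterisk at an adjusted permutation p under 0.05. The block of Gfap, Aqp4 and Agt (r from 0.61 to 0.78) stands out on the left, and Slc4a4 with striatal neuron markers (r = 0.74) on the right.

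The genes whose pattern was most like each member, by Pearson's r over the 31 mice among 8439 genes, give a further description, without a test. Nearest to Gfap were Dbi (r = 0.9), which encodes a diazepam binding inhibitor protein, Wscd1 (r = 0.82) and Lgi3 (r = 0.81). Nearest to Agt were Slc6a11 (r = 0.89), the astrocytic GABA transporter GAT-3, 2310022B05Rik (r = 0.82) and Sparc (r = 0.8), a secreted matrix protein. Nearest to Aqp4 were Tmem63a (r = 0.83), Trf (r = 0.82) and Gpr37 (r = 0.8), the latter both abundant in oligodendrocytes. Nearest to Gja1 were Srebf1 (r = 0.89), a regulator of lipid synthesis, Sec11c (r = 0.87) and Itgb8 (r = 0.84).

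Aldoc was most like Uqcrh (r = 0.92), Uqcr10 (r = 0.81) and Ndufs6 (r = 0.81), subunits of the mitochondrial respiratory chain. Glul was most like Psat1 (r = 0.86), an enzyme of serine synthesis, Tpt1 (r = 0.85) and Ndufb2 (r = 0.84). Slc4a4 was most like Srgap1, Ank3 and Ppp1r16b (r = 0.89 each). Weaker likenesses were found for Slc1a2, with Nceh1 (r = 0.78), R3hdm2 (r = 0.77) and Abi2 (r = 0.76), for Slc1a3, with Pcdh20, Cmpk1 and Btbd3 (r = 0.67 each), and for Aldh1l1, with Hist2h2aa2 (r = 0.67), Pcyt1a (r = 0.66) and Arhgap12 (r = 0.63). The mean of the 9 genes other than Gfap was most like Kif1c (r = 0.79), Olig1, S100a16, B3galt5 (r = 0.76 each) and Prox1 (r = 0.75). No nearest gene of Gfap belonged to the marker lists, and of the genes nearest to Agt, Slc6a11 and Sparc were among the 40 other astrocyte genes.

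Those 40 other astrocyte genes were all tested, and none was called between genotypes by edgeR (smallest adjusted p over both lines = 0.999). Over both lines 30 were above and 10 below 0, 7 of them above 0 at an unadjusted p under 0.05, with a median log2 fold change of 0.06 against -0.01 over all genes. Of all genes tested, 48.7% were above 0 and 4.3% had an unadjusted p under 0.05 in either direction. The smallest p-values above 0 were those of Gjb6, the gap junction protein connexin 30 (log2 fold change 0.39 ± 0.14, unadjusted p = 0.00781), and Ndrg2 (0.34 ± 0.12, unadjusted p = 0.00788). Below 0 they were those of Id4 (-0.31 ± 0.17) and Slc39a12 (-0.19 ± 0.21). In line 1 29 were above 0, against 50.4% of all genes, and in line 3 24, against 47.4%.

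Genes of reactive astrocytes were low, apart from Stat3. That gene ranged from 41.4 to 76.8 CPM (median 56.8) and made up much of the summed level of the list (median 94.5 CPM). No other gene of the list exceeded 17.7 CPM. Of 13 listed, 9 passed the filter, and Lcn2, Steap4 and Timp1 had no read in 22, 24 and 24 of the 31 mice. Over both lines 2 of the 9 were above and 7 below 0, none called, with a median log2 fold change of -0.04. Cd44, a matrix receptor, was at -0.55 ± 0.24 (edgeR unadjusted p = 0.0284, adjusted p = 0.999) and S1pr3 at -0.34 ± 0.39, while Aspg was at 0.59 ± 0.51 and Serpina3n at 0.03 ± 0.43. In the low-connectivity mouse, which had the highest Gfap, the summed level of these 13 genes was 103 CPM, within the range of 68.7 to 118 in the other mice. Its other astrocyte sum, 9323 CPM, was above their highest of 9053, and its BLA principal neuron markers, 3589 CPM, were above their highest of 1794.

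The other cell types were measured the same way, and none of their genes was called between genotypes over both lines. All 10 oligodendrocyte genes were below 0 over both lines (median log2 fold change -0.35), as were all 5 precursor genes (median -0.15) and all 6 choroid and ependymal genes (median -1.06). Of the last, Foxj1, a regulator of motile cilia, was at -1.21 ± 0.39 (edgeR unadjusted p = 0.004, adjusted p = 0.999). Medians were 0.12 for 8 microglial genes, -0.14 for 7 vascular and mural genes, 0.05 for 8 neuron genes, 0.12 for 5 BLA principal neuron genes, 0.01 for 6 striatal genes and 0.18 for 5 thalamic and pallidal genes. No gene of these lists was without reads in every mouse. Their part in the genotype values of the 10 genes was not tested.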

How the data were processed

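RNA from the BLA of 31 mice was sequenced by QuantSeq. Per the labels and the study's methods, reads were aligned to GRCm38 by STAR and quantified by Salmon, and the authors deposited a table of expected counts for each mouse, that is, estimated counts with decimals and without normalization. Total counts ranged from 5286708 to 8685308, which leaves the lowest members with about 20 reads in a mouse. Mice were grouped by the genotype and line in their labels, and replicate numbers follow the order of the samples. The libraries came from separate animals, and no pair of libraries agreed within sampling noise.

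Expected counts were rounded, and a gene was kept where 20% or more of the mice had 10 or more reads. Genotype, line and sex were tested with edgeR 4.0.16 (R 4.3.3), with TMM normalization, the quasi-likelihood F test (two-sided) and Benjamini-Hochberg adjustment over all 17428 genes. The model held sex, line and genotype over both lines, and sex with the 4 groups for each line and for the difference. The technical components of the study's model were not used here, so an alternative took 5 surrogate variables (sva 3.50.0) in their place. DESeq2 1.42.0 served as another. CPM were TMM-scaled, log2 CPM had a prior count of 2, and 95% intervals are the normal intervals from the SE. Correlations were tested by 100000 permutations of the mice. The models and the permutation step were tested on simulated data. Symbols and positions came from GENCODE on GRCm38.

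The members and lists were chosen with earlier results of these data known. All 10 members were named in each comparison. Of other lists, those eligible had the 2 smallest p-values above and below 0, and by likeness they were the 3 nearest genes of each member and 5 of the mean of the 9 besides Gfap. Lcn2, Steap4, Timp1, Stat3, Drd2, Ttr and, for its share of a marker sum, Camk2a were named after their values were seen. Alternatives were another scaling, DESeq2, no filter, surrogate variables, age, the mice aged 77 days, name groups, each line alone and each mouse left out.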

Additional observations from a re-analysis of the deposited data

Results flagged for a closer look

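Each member was examined within the 4 groups of 7 or 8 mice for a mouse far from the others, by the gap to its nearest neighbour relative to the range (Dixon's test). This gave 8 such values, from 5 mice, in 40 examined sets. Chance flags about 1 in 20 sets of independent, normally distributed values. The sets here share mice and hold CPM on a linear scale, so the count cannot be judged against that rate. CYFIP OE line 3 replicate 1, the mouse with the low connectivity, accounted for 3 of the 8 values. It had the highest Gfap of its group (66.1 CPM, the next mouse 25.5), the lowest Slc1a2 (1191 CPM, the next 1510) and the highest Slc1a3 (400.3 CPM, the next 321). Control line 3 replicate 1 accounted for a further pair, with Agt of 59.3 CPM (the next 18.6) and Slc1a2 of 1276 CPM (the next 1548).

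The remaining 3 mice were isolated cases. Aqp4 was 48 CPM in CYFIP OE line 1 replicate 7 (the next 30.4), Slc4a4 was 189 CPM in Control line 3 replicate 6 (the next 127), and Aldh1l1 was 25.7 CPM in Control line 1 replicate 2 (the next 17.3).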

How the results depend on the processing

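In no comparison was a member called at an adjusted p under 0.05 under any alternative run, with each mouse left out included, where the count was 0 throughout. The smallest adjusted p of a member was 0.0719, that of Agt over both lines with 5 surrogate variables. Signs of these uncalled differences changed often. Over both lines 9 of 80 values changed sign under the other alternatives, among Aldh1l1, Gfap, Gja1, Glul and Slc1a2, and 24 of 310 did with a mouse left out. The number of correlated pairs, 12, was 21 with sex and group removed, 19 without the mouse with a low connectivity and 19 with scaling to library totals. In the first 2 of these all 12 pairs were kept, and in the last 10 were kept, Gfap with Slc1a2 and Slc4a4 with Slc1a3 being lost. With name groups removed it was 16, of which 10 were among the 12 (Gfap with Gja1 and Slc4a4 with Slc1a3 being lost), and without the 2 line 3 mice highest in Gfap it was 17, of which 11 were, alternatives chosen after seeing the data. Why the number rose was not tested. The index of Gfap against the others differed by -0.2 between genotypes and by -0.38 without the low-connectivity mouse, both less than its SD. In line 1, 7 of 8 control mice share a name group with no CYFIP OE mouse, so name group and genotype cannot be told apart there. No paired analysis was possible because the replicate numbers only name mice in order. The nearest to it was the fit within name groups that hold both genotypes (9 control and 9 CYFIP OE mice), which called no member.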
